A study of Mus musculus with 1699 samples.

Results

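The nuclear factor I (NFI) family comprises the 4 transcription factor genes Nfia, Nfib, Nfic and Nfix. All 4 were taken as members by name, out of 39468 gene entries, and each had a single entry in the data. They were examined in single cells of the mouse ventral midbrain, by stage, by genotype and by 3 classes of cell. The classes rested on 3 genes whose RPKM (reads scaled to the length of the gene and to the sequencing depth of the cell) exceeded 150. Nxph4 encodes a neurexophilin, a secreted ligand of neurexins. Gad2 encodes an enzyme that makes the inhibitory transmitter GABA. Slc6a3 encodes the dopamine transporter, which takes dopamine back up into mature dopamine neurons. A cell over the limit for exactly 1 of these genes was called Nxph4-high, Gad2-high or Slc6a3-high.

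NFI proteins share a DNA-binding domain and bind, as dimers with themselves or with each other, to a palindrome built from the arms TTGGC and GCCAA. In the developing nervous system Nfia, Nfib and Nfix are known for the switch from neuron to glia production, for the maturation of cerebellar granule neurons and as genes that mark later-born neurons. Astrocytes and oligodendrocyte precursors also make them, so glial cells in a sort can contribute their RNA.

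The cells were sorted for GFP from dissected ventral midbrain and sequenced with the Smart-seq2 protocol. All carried the Pitx3tm1Mli allele, in which eGFP is placed in the gene of the dopamine neuron factor Pitx3, so the sort rested on activity of the Pitx3 locus and not on an NFI gene. Not every sorted cell had eGFP RNA over RPKM 10: the share ran from 51.1% at P90 to 93.6% at E15.5. Heterozygotes (Pitx3eGFP/wt) were taken before birth at E13.5, E15.5 and E18.5 and after it at P1, P7 and P90, and homozygotes (Pitx3eGFP/eGFP) at E13.5 and P1. No animal without the allele was included. Several animals were used at each stage and the animal behind a cell was not named, so a stage of 1 genotype counted as 1 sample and no test between groups was possible. Of 1699 cells, 1649 passed the limits on reads and detected genes, and 59 of these were set apart because at least 3 of 8 oligodendrocyte lineage markers had an RPKM over 10. This left 1590 cells, of which 1234 were heterozygote. Heterozygote cells of the 6 stages from E13.5 to P90 made up 8.81%, 8.87%, 11.8%, 18%, 9.75% and 20.4% of the 1590, and homozygote cells 11.3% at E13.5 and 11.1% at P1. Group medians lay between 753256 and 2357898 reads per cell, and single cells had 100007 to 8634201 reads. The targeted gene went with the labels: mean Pitx3 was RPKM 415.7 in heterozygotes and 18.8 in homozygotes at E13.5, and 97.2 and 7.74 at P1. Tissue was dissociated with 1 kit at the embryonic stages, another at P1 and P7 and papain at P90. Between these sets of stages, stage and dissociation cannot be told apart, while stages within a set shared a kit.

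All cells were labelled as neurons, but the P7 cells did not all look like neurons. At least 3 of 8 astrocyte markers exceeded RPKM 10 in 79 of the P7 cells, with 76 that had fewer. There were 31 such cells at P1, 29 in P1 homozygotes, 4 over the embryonic stages of heterozygotes, and 0 at P90. In the 79 P7 cells the summed RPKM of the 8 astrocyte markers had a median of 6298, against 6.19 in the other 76, and the summed RPKM of 7 neuron markers had a median of 112.3, against 4669. The 79 cells also held RNA of other glial lineages and progenitors: Olig1 was over RPKM 10 in 92.4%, the summed RPKM of the oligodendrocyte lineage markers had a median of 479.8, and 49.4% had at least 3 of 6 progenitor markers over 10. In 50 of them (63.3%) Olig1 was over RPKM 10 and eGFP was not. The study left out clusters of cells with Olig1 and no eGFP, a step that was not applied here and was replaced by the marker rules. NFI genes were high in these cells: Nfia was over RPKM 10 in 79.7%, Nfib in 83.5%, Nfic in 27.8% and Nfix in 82.3% of the 79. Several shares that these cells could move are therefore given with and without them. Comparisons of mean RPKM across all entries, values of listed genes and correlations around birth are given only with them included. The part of astrocyte-marker cells in other differences was not tested. A share of cells over a limit also depends on the reads per cell, and the intervals given cover counting error only.

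The 4 genes lie apart in the genome (GENCODE annotation of GRCm38). Nfia (ENSMUSG00000028565) occupies chr4:97772734-98118874 on the plus strand, and Nfib (ENSMUSG00000008575) chr4:82290173-82705750 on the minus strand. Nfic (ENSMUSG00000055053) lies at chr10:81396186-81455635 and Nfix (ENSMUSG00000001911) at chr8:84699876-84800344, both on the minus strand. The protocol does not keep the strand of a read. Nfia overlaps E130114P18Rik on the other strand (mean RPKM 20.4 over the kept cells), Nfib Gm11266 (1.96), and Nfix Lyl1 (0.774) and G430095P16Rik (1.78), and reads from the shared stretches cannot be assigned to a strand. No stretch of 43 bases, the read length, occurred in transcripts of more than 1 member, so reads of that length that match exactly do not mix the members. With other genes, Nfib shared 0.0531% and Nfix 0.107% of such stretches.

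Because 3 members moved together across cells, the windows from 250 bases before to 50 after the annotated starts were searched for the NFI arms TTGGC and GCCAA on both strands (RefSeq, GRCm38.p6). A window was given for Nfia (1), Nfic (1) and Nfix (4), and Nfib is named only. The Nfia window, of a RefSeq transcript, lies upstream of the GENCODE interval given above, and the Nfix windows lie inside theirs. Of all 32851 windows, 46.7% held an arm, and 12 (0.0365%) held the palindrome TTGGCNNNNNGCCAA. The arm was found in 3 of the 4 Nfix windows and in neither the Nfia nor the Nfic window, and none of the 6 held the palindrome. A match is a string of letters and not a shown binding site, and the shares among all windows show how common a single arm is. A Nfix window with 2 arms 3 bases apart, in the reverse of the order they have in the palindrome, is printed with the arms in capitals, beside the Nfia window, which has none. The last sequence is a coding stretch of Nfix against which the study designed an in situ probe; it lies at chr8:84771813-84771852 (minus strand) within the coding sequence of 5 Nfix transcripts and was found in no other gene.
Nfix, chr8:84772826-84773125, minus strand: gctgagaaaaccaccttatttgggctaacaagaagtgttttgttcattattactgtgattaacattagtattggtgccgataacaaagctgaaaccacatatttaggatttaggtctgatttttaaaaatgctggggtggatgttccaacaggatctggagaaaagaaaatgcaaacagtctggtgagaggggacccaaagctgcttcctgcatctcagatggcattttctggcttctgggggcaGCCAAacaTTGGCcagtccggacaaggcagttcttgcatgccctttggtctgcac
Nfia, chr4:97581693-97581992, plus strand: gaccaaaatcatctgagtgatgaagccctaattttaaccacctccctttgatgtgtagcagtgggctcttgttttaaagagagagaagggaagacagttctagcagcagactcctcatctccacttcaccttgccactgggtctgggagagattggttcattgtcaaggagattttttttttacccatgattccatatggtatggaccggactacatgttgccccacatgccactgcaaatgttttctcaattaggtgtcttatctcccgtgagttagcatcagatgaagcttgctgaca
Nfix probe target, chr8:84771813-84771852, minus strand: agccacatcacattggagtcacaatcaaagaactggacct

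At P90 the NFI genes divided the classes. The paper, from this data set, already reports Nfia, Nfib and Nfix as enriched in its cells with low Slc6a3. Nfia, Nfib and Nfix were found mainly in Nxph4-high cells and were near 0 in most Gad2-high and Slc6a3-high cells, while Nfic was spread over all 3 classes. A plate here means the cells that share a tag in their labels, and whether each tag stands for a physical plate was not checked. The 4 plates held 40, 38, 51 and 18 Nxph4-high cells, 45.2% of the P90 cells together. The paper reports that groups with high Slc6a3 were underrepresented among its sequenced cells, so this share need not be that in tissue. There were 57 Gad2-high and 66 Slc6a3-high cells, and 26 cells were over the limit for more than 1 gene and 29 for none. Of the transmitter genes, the vesicular glutamate transporter Slc17a6 was over RPKM 10 in 100% of Nxph4-high cells, the vesicular GABA transporter Slc32a1 in 63.2% of Gad2-high cells and tyrosine hydroxylase (Th) in 98.5% of Slc6a3-high cells. Slc17a6 was not particular to the first class, being over RPKM 10 in 94.7% of Gad2-high and 56.1% of Slc6a3-high cells. Nor was Th particular to the last, being over RPKM 10 in 68.4% of Gad2-high and 49% of Nxph4-high cells. Gad1, the other gene for a GABA-making enzyme, went against the Gad2 class, being at RPKM 0 in all 57 Gad2-high cells and over RPKM 10 in 12 Nxph4-high cells (8.16%). Near the class limit, between RPKM 100 and 200, lay 28 cells for Nxph4, 12 for Gad2 and 7 for Slc6a3.

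Nfix was the member with the highest level in Nxph4-high cells. Its RPKM ran from 0 to 182.6 with a median of 19, and 70.1% of the cells (exact 95% interval 62 to 77.3) were over 10. In Gad2-high cells the median was 0 and 5 of 57 cells (8.77%, 2.91 to 19.3) were over 10. In Slc6a3-high cells the median was 0 and the highest 38.8, and 5 of 66 cells (7.58%, 2.51 to 16.8) were over 10. The share in Nxph4-high cells was thus 62.5 percentage points above that in Slc6a3-high cells (Newcombe interval 50.6 to 70.6), and the mean RPKM of 35.8 was 15.2-fold that of 2.36. Gad2-high and Slc6a3-high cells differed by 1.20 points, with an interval from -9.05 to 12.2.

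Nfib, which in the forebrain and hindbrain acts beside Nfia in glial and neuronal development, had the same order of classes by share. It was over RPKM 10 in 62 Nxph4-high cells (42.2%, 34.1 to 50.6), with a median of 6.87 and a highest value of 95.4. Only 3 of 57 Gad2-high cells (5.26%, 1.10 to 14.6) and 2 of 66 Slc6a3-high cells (3.03%, 0.369 to 10.5) were over 10, and the medians were 0. The difference between Nxph4-high and Slc6a3-high cells was 39.2 points (28.5 to 47.5) in share and 16.4-fold in mean RPKM (13.1 against 0.800). The mean of the Gad2-high cells, RPKM 15.5, rested on 1 cell at 845.2, and without it the mean was 0.728 and the highest value 11.4.

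Nfia was the member over RPKM 10 in the fewest Gad2-high and Slc6a3-high cells. It was over RPKM 10 in 47 Nxph4-high cells (32%, 24.5 to 40.2), in 1 of 57 Gad2-high cells (1.75%, 0.0444 to 9.39) and in 0 of 66 Slc6a3-high cells (0%, upper limit 5.44). Its median was RPKM 6.35 in Nxph4-high cells and 0.0886 in Slc6a3-high cells, and the highest Slc6a3-high cell reached 2.25. Few Nxph4-high cells lacked it altogether, with 2 cells at RPKM 0, against 17 for Nfib, 11 for Nfix and 74 for Nfic. By any reads it was the most widespread of the 4, since only 29.8% of Gad2-high and 28.8% of Slc6a3-high cells were at RPKM 0, against 78.9% and 72.7% for Nfib, 61.4% and 65.2% for Nfix and 54.4% and 66.7% for Nfic. A longer gene gives more reads at the same RPKM. The median length implied by the RPKM was 7337 bases for Nfia, 4646 for Nfib, 2687 for Nfic and 1785 for Nfix. The part of length, and of reads from E130114P18Rik, which overlaps Nfia, was not tested. Over a limit of RPKM 50 Nfia was found in 1.36% of Nxph4-high and 0% of Slc6a3-high cells. The mean RPKM was 9.86 in Nxph4-high, 0.640 in Gad2-high and 0.267 in Slc6a3-high cells, and the Nxph4-high mean was 36.9-fold the Slc6a3-high mean.

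Nfic, the member with the broadest known expression across tissues, was over RPKM 10 in similar shares of the classes. It was over RPKM 10 in 18.4% of Nxph4-high (12.5 to 25.6), 15.8% of Gad2-high (7.48 to 27.9) and 15.2% of Slc6a3-high cells (7.51 to 26.1), and the medians were 0 in all 3. The difference between Nxph4-high and Slc6a3-high cells was 3.22 points (-8.64 to 12.9), and the mean RPKM was 6.03 against 4.50. This depended on the limit: over RPKM 1 it was found in 40.8% and 22.7%, a difference of 18.1 points (4.35 to 29.8).

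**Figure D1:**
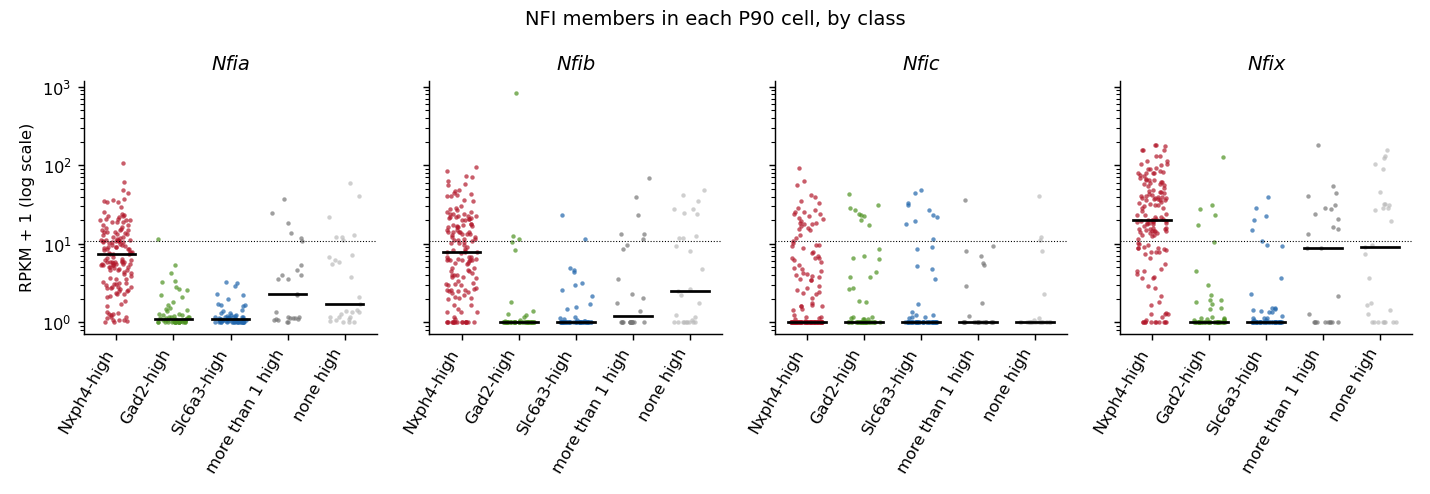
RPKM + 1 on a log axis of the 4 NFI genes in each P90 cell, 1 point per cell, by class; the black bar is the class median and the dotted line stands at RPKM 10. The Nxph4-high median lies above the line for Nfix (RPKM 19) and below it for Nfib (6.87) and Nfia (6.35). For these 3 genes most points above the line are red Nxph4-high cells, while most Gad2-high and Slc6a3-high points lie near the floor. Points above the line number 5 and 5 for Nfix, 3 and 2 for Nfib (among them 1 Gad2-high cell at 845.2) and 1 and 0 for Nfia, and Nfic has points above it in all 3 classes.

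The pattern was seen on all 4 P90 plates. The share of Nxph4-high over Slc6a3-high cells was higher by 73.5, 72.1, 56.9 and 50 points for Nfix, by 48.7, 40, 37.3 and 27.8 points for Nfib and by 27.5, 29, 33.3 and 44.4 points for Nfia, while for Nfic it was 3.46, 4.64 and 6.60 points higher and 2.78 points lower (difference -2.78). With every cell thinned to 100000 reads and the classes formed anew, the shares in Nxph4-high and Slc6a3-high cells were 67.1% and 10.6% for Nfix, 40.4% and 1.52% for Nfib, and 32.2% and 0% for Nfia. Astrocyte markers were near 0 at P90: no cell had 3 of them over RPKM 10, their summed RPKM had a median of 3.0 in Nxph4-high, 1.95 in Gad2-high and 2.35 in Slc6a3-high cells, and 4 of the 8 were over 10 in none of the Nxph4-high cells. Of 3 astrocyte markers that could be tested, 2 were higher in Nxph4-high cells, among them Sox9 (mean RPKM 2.51 against 0). Of 14088 gene entries with a mean RPKM of at least 1 over the 2 classes, 13.1% had a mean in Nxph4-high cells at least 2-fold that in Slc6a3-high cells, and 3 of the 4 members did. Of these 3, Nfia and Nfib had Slc6a3-high means under RPKM 1 and reached the filter only through the Nxph4-high cells, so their place in the count follows largely from the filter and supports nothing. Only Nfix had a mean over 1 in both classes. The same holds for listed genes that are near 0 in 1 of the compared groups. The median log2 ratio over those entries was 0.13, so that entries in general were slightly higher in the Nxph4-high cells. For Gad2-high over Slc6a3-high cells 12.9% of entries passed the 2-fold limit, and 1 of 3 members did, Nfib, through the single cell described above.

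The cells outside the 3 classes lay in between for Nfia, Nfib and Nfix and had the lowest shares for Nfic. Among the 29 cells with none of the 3 genes over 150, Nfix was over RPKM 10 in 44.8%, Nfib in 34.5%, Nfia in 24.1% and Nfic in 10.3%. Among the 26 cells with more than 1 gene over the limit, the shares were 46.2%, 23.1%, 19.2% and 3.85%. Within Nxph4-high cells, those that also had Th over RPKM 150 (40 cells) and those that did not had shares whose difference had an interval that included 0: 65% against 72% for Nfix (difference -6.96 points, -24.2 to 8.83), 37.5% against 43.9% for Nfib (-6.43, -22.7 to 11.5) and 22.5% against 35.5% for Nfia (-13, -26.9 to 4.19). All 5 Gad2-high cells with Nfix over 10 were among the 27 that had Th over 150 (18.5%, against 0 of 30; difference 18.5 points, 3.17 to 36.7). This division by Th was made after the values had been seen.

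Among the 3 classes, Nxph4-high cells had the largest share with Nfia, Nfib and Nfix at every earlier stage too. Cells with none of the 3 genes over the limit had a larger share with Nfia at P7 (64.1%, against 60%), a stage rich in astrocyte-marker cells. Without astrocyte-marker cells this order turned, with Nfia in 20% of 30 such cells and in 55.6% of 9 Nxph4-high cells. At E13.5 the classes held 38 Nxph4-high, 12 Gad2-high and 25 Slc6a3-high cells. Nfib was over RPKM 10 in 55.3% of Nxph4-high cells (38.3 to 71.4), in 1 of 12 Gad2-high and in 1 of 25 Slc6a3-high cells. Nfia was over 10 in 34.2% of Nxph4-high cells (19.6 to 51.4) and in no cell of the other two classes. Nfix was over 10 in 5 of 38 Nxph4-high cells (13.2%, 4.41 to 28.1) and in 0 of 25 Slc6a3-high cells, a difference of 13.2 points whose interval included 0 (-2.08 to 27.3). Mean RPKM was at least 2-fold higher in Nxph4-high than in Slc6a3-high cells for 4 of 4 members, where the background was 17.1% of all entries. All 4 had Slc6a3-high means under RPKM 1 (0.330, 0.739, 0.0407 and 0.00322 in the order Nfia, Nfib, Nfic, Nfix) and were tested only through the Nxph4-high cells, so nothing is read from this count.

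At E15.5 the share of Nxph4-high cells with Nfia and with Nfib was the largest of any stage. All 22 cells had Nfib over RPKM 10 (100%, 84.6 to 100), with a median of RPKM 187.6 and a range up to 425.1. Nfix was over 10 in 20 of 22 cells (90.9%, 70.8 to 98.9) with a median of 149.3, and Nfia in 17 of 22 (77.3%, 54.6 to 92.2) with a median of 31.2. In the 38 Slc6a3-high cells the shares were 26.3% for Nfib, 36.8% for Nfix and 13.2% for Nfia. The differences were 73.7 points for Nfib (52.1 to 85), 54.1 points for Nfix (29.5 to 69) and 64.1 points for Nfia (39 to 78.7). Here 4 of 4 members passed the 2-fold limit, against 17.1% of entries, 1 of them (Nfic) with a Slc6a3-high mean under RPKM 1.

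Around birth the share of Slc6a3-high cells with Nfix stayed well above that with Nfia. At E18.5, Nfix was over RPKM 10 in 32 of 79 Slc6a3-high cells (40.5%, 29.6 to 52.2), Nfib in 17 (21.5%) and Nfia in 1 (1.27%, 0.0320 to 6.85). In the 16 Nxph4-high cells of that stage the shares were 93.8% for Nfix and Nfib and 62.5% for Nfia. At P1, Nfix was over 10 in 36 of 39 Nxph4-high cells (92.3%, 79.1 to 98.4), in 11 of 30 Gad2-high cells (36.7%) and in 33 Slc6a3-high cells (31.7%, 23 to 41.6). Of all Slc6a3-high cells of that stage, 52 had spike-in and 52 had none. The Nxph4-high share was 60.6 points above the Slc6a3-high share for Nfix (44.8 to 70.2), 52.6 points for Nfib (34.8 to 65.9) and 55.8 points for Nfia (38.9 to 69.7). The 2-fold limit was passed by 3 of 4 members at E18.5 (14.2% of entries) and by 4 of 4 at P1 (13.7% of entries), where Nfic had a Slc6a3-high mean under RPKM 1. At E18.5 Nfic was at least 2-fold lower (mean RPKM 0.613 against 3.56), as were 15.3% of entries. Nfic reached the filter there only through the Slc6a3-high cells, so nothing is read from this call. For Gad2-high over Slc6a3-high cells at P1 the 2-fold limit was passed by 1 of 3, Nfia (mean RPKM 5.75 against 1.72), against 11.8% of entries. That Gad2-high mean rested on few cells: the median of the 30 was RPKM 0.268 and the highest value 81.9. At P7 the classes were small, with 10 Nxph4-high, 10 Gad2-high and 30 Slc6a3-high cells, and Nfix was over 10 in 9, 5 and 8 of them. Without astrocyte-marker cells Nfix was over 10 in 8 of 9, 4 of 8 and 7 of 28. With all kept cells of P7, 3 of 3 members that reached a mean RPKM of 1 passed the 2-fold limit, against 19.3% of entries. Astrocyte markers were higher in the same comparisons, 3 of 4 tested at E18.5 (median 10.9-fold) and 7 of 8 at P7 (median 6.90-fold), and so were 4 of 6 of the glial genes that NFI is known to induce at P7. Gfap, Slc1a3 and Aqp4 are on both lists, so these counts overlap. Progenitor markers were higher too, 2 of 2 tested at E13.5 (median 2.75-fold), 3 of 3 at E18.5 (3.79-fold), 3 of 3 at P1 (3.33-fold) and 4 of 4 at P7 (7.59-fold), with 1 higher and 1 lower at E15.5, as were 2 of 2 oligodendrocyte lineage markers at P1 (5.74-fold). The part of such RNA in the class differences was not tested beyond the values without astrocyte-marker cells.

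Astrocyte-marker cells were few in the classes at P1, namely 4 of 39 Nxph4-high (10.3%) and 2.88% of Slc6a3-high cells. Without them the P1 shares in Nxph4-high and Slc6a3-high cells were 94.3% and 31.7% for Nfix, 71.4% and 18.8% for Nfib, and 57.1% and 5.94% for Nfia. At E18.5 the 2 plates gave differences of 51.4 and 58.3 points for Nfix, 60.7 and 88.9 points for Nfib and 61.3 and 60 points for Nfia. At P1 the cells of the plate with spike-in and the cells with none gave 47.1 and 70.5 points for Nfix, 59.6 and 47.9 points for Nfib and 58.7 and 53.6 points for Nfia.

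**Figure D2:**
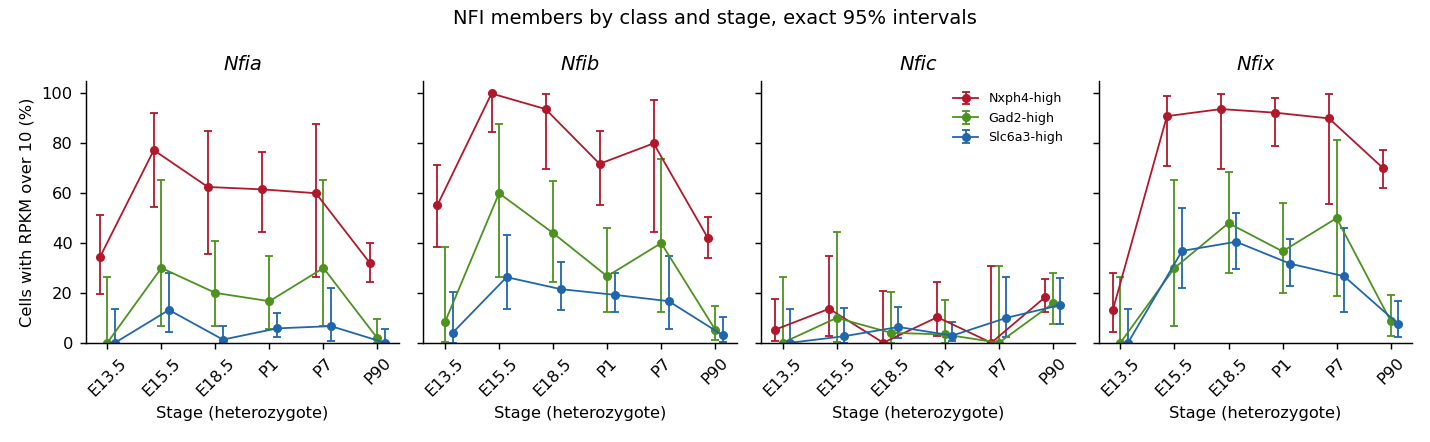
Share of heterozygote cells (%) with each NFI gene over RPKM 10 at 6 stages in Nxph4-high (red), Gad2-high (green) and Slc6a3-high (blue) cells, with exact 95% intervals. The red line lies above the others at every stage for Nfia, Nfib and Nfix, from 13.2% at E13.5 to 70.1% at P90 for Nfix, and not for Nfic.

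Across all heterozygote cells, Nfix and Nfib had their largest step between neighbouring stages from E13.5 to E15.5. Nfix was over RPKM 10 in 9 of 140 cells at E13.5 (6.43%, 2.98 to 11.8) and in 75 at E15.5 (53.2%, 44.6 to 61.6), a difference of 46.8 points (37 to 55.4), and its mean RPKM was 23-fold higher (72.1 against 3.13). Nfib was over 10 in 26.4% and 66% (difference 39.5 points, 28.2 to 49.4; 3.95-fold in mean RPKM), and Nfia in 15.7% and 31.2% (15.5 points, 5.59 to 25; 2.42-fold). With a limit of RPKM 50 the difference for Nfia was 3.53 points, with an interval that included 0 (-1.68 to 9.11). Nfic did not differ beyond counting error, with 5.0% and 4.26% (-0.745 points, -6.21 to 4.62). A 2-fold higher mean at E15.5 was found for 3 of 4 members, against 9.03% of entries. The step was seen within the classes. The share with Nfix went from 13.2% to 90.9% in Nxph4-high and from 0% to 36.8% in Slc6a3-high cells, and the share with Nfib from 55.3% to 100% and from 4.0% to 26.3%. Both stages came without spike-in and had similar depth (medians of 2357898 and 2083310 reads), and with cells thinned to 100000 reads the shares with Nfix were 4.29% and 50.4%. From E15.5 to E18.5 the share with Nfib was lower, at 66% and 34.2% (mean RPKM 77.6 and 16.6), as was that with Nfia, at 31.2% and 16%. The share with Nfix was 53.2% and 45.5%. All E18.5 cells had spike-in and no E15.5 cell did, so stage and preparation cannot be told apart in this step.

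Between E18.5 and P90 the share with Nfix over the whole stage differed little while it was lower within each class. Nfix was over RPKM 10 in 45.5% of cells at E18.5 and in 42.5% at P90 (difference -2.99 points, -11.9 to 5.85), but Nxph4-high cells were 8.56% of the E18.5 cells and 45.2% of the P90 cells. Means of 2 of the 3 class genes were at least 2-fold higher at P90. A fixed class limit therefore need not pick the same kind of cell at both stages. Within Nxph4-high cells the share with Nfix was 93.8% at E18.5 and 70.1% at P90 (difference -23.7 points, -33.1 to -0.575) and the mean was RPKM 162.9 and 35.8. By plate this share was 90.9% and 100% at E18.5 and 85%, 81.6%, 56.9% and 50% at P90. Within Gad2-high cells the share with Nfix was 48% and 8.77% (-39.2 points, -58.4 to -18.6), and within Slc6a3-high cells 40.5% and 7.58% (-32.9 points, -44.8 to -19.4). Nfib was over 10 in 34.2% and 25.5% of all cells (-8.69 points, -17 to -0.543; -7.97 without astrocyte-marker cells, -16.3 to 0.155), and was lower within all 3 classes, with 93.8% and 42.2% in Nxph4-high (-51.6 points, -60.8 to -28.1), 44% and 5.26% in Gad2-high (-38.7, -58.0 to -19.2) and 21.5% and 3.03% in Slc6a3-high cells (-18.5, -29 to -7.89). Nfia was 62.5% and 32% in Nxph4-high (-30.5, -50.8 to -5.39) and 20% and 1.75% in Gad2-high cells (-18.3, -37.4 to -4.80; without astrocyte-marker cells -11.3, with an interval of -30.4 to 0.0751), and 1.27% and 0% in Slc6a3-high cells (-1.27, -6.83 to 4.33). Against P1 the P90 share with Nfix was lower by 22.2 points in Nxph4-high cells (-22.2, -31.6 to -7.89) and by 24.2 points in Slc6a3-high cells (-24.2, -34.5 to -12). The median depth was 1140978 reads at E18.5, 1626503 at P1 and 1764068 at P90. Cells with none of the 3 genes over the limit did not follow, with Nfix in 38.5% and 44.8%. Over all cells, 1 of 4 members, Nfix, had a mean at P90 at least 2-fold below that at E18.5 (RPKM 21.7 against 45.3), against 17% of entries. Of the tested markers, 4 of 6 for astrocytes and 2 of 2 for progenitors were also lower at P90, with 1 astrocyte marker higher. So were 4 of 5 glial genes that NFI is known to induce, a list that shares Gfap, Slc1a3 and Aqp4 with the astrocyte markers. Of 7 neuron markers, 2 were lower and 1 higher. The part of such RNA in the NFI values was not tested. Nfic went the other way from Nfix, being over 10 in 4.81% of cells at E18.5 and 15.4% at P90 (10.6 points, 5.19 to 15.5). With a limit of RPKM 50 this direction turned, with 2.14% and 0.923% (-1.22 points, -4.50 to 0.971).

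The P7 shares moved most when astrocyte-marker cells were left out. With all kept cells, the P7 shares were 50.3% for Nfia, 58.1% for Nfib, 18.1% for Nfic and 59.4% for Nfix, above the P1 shares of 25.5%, 39.2%, 6.99% and 46.2%. Without astrocyte-marker cells the P7 shares were 19.7%, 31.6%, 7.89% and 35.5% (76 cells) and the P1 shares 18.8%, 34.9%, 6.27% and 46.3%. The order of P7 and P1 for Nfib and Nfix was thus turned, though the exact intervals of the 2 stages overlapped. They were 21.39 to 43.25 at P7 and 29.06 to 41.1 at P1 for Nfib, and 24.88 to 47.34 and 40.03 to 52.6 for Nfix. Leaving out cells with Olig1 but not eGFP over RPKM 10, a rule added after seeing the data, gave P7 and P1 shares of 31.4% and 22.5% for Nfia, 42.9% and 37.6% for Nfib and 45.7% and 47.2% for Nfix.

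**Figure D3:**
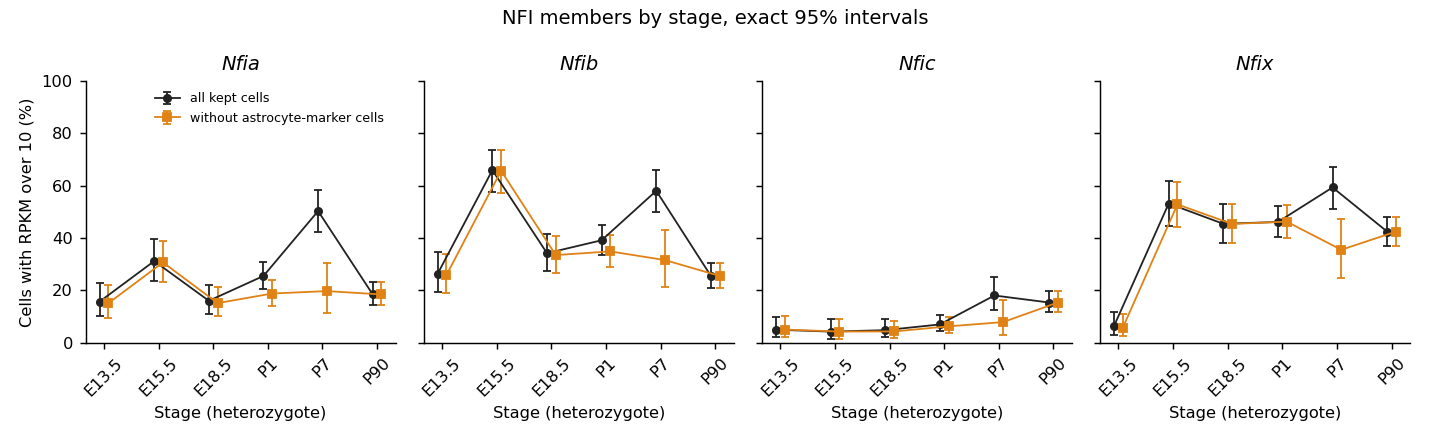
Share of heterozygote cells (%) with each NFI gene over RPKM 10 by stage, with exact 95% intervals, for all kept cells (black) and without astrocyte-marker cells (orange). For Nfia, Nfib and Nfix both lines show the step between E13.5 and E15.5, which Nfic lacks (5.0% and 4.26%); the lines part at P7, where Nfix is at 59.4% and 35.5%.

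Some cells had more than 1 member over RPKM 10. At P90, 87.8% of Nxph4-high cells had at least 1 member over RPKM 10 and 51.7% at least 2, against 5.26% of Gad2-high and 1.52% of Slc6a3-high cells with at least 2. The most frequent states of Nxph4-high cells were Nfix alone (34 cells, 23.1%), Nfib with Nfix (22), none (18), Nfia with Nfib and Nfix (16) and Nfia with Nfix (13). In Slc6a3-high cells the most frequent were none (50 of 66), Nfic alone (9) and Nfix alone (4). At E15.5, 17 of 22 Nxph4-high cells had 3 or 4 members over RPKM 10. Of the P90 cells with Nfia over 10, 73.3% also had Nfix, and of those with Nfib 77.1% did, whereas 46% of cells with Nfic did. The share with Nfix over all P90 cells was 42.5%. Of the cells with Nfix, 31.9% had Nfia and 46.4% Nfib, against 18.5% and 25.5% of all P90 cells. Within Nxph4-high cells, 74.5% of those with Nfia, 79% with Nfib and 66.7% with Nfic had Nfix, against 70.1% of the class. Whether members shared cells more often than their shares in the class would give was not tested. Over all P90 cells the levels of Nfia, Nfib and Nfix went together, with Spearman correlations of 0.66 for Nfia with Nfix, 0.65 for Nfib with Nfix and 0.58 for Nfia with Nfib, and between -0.05 and 0.04 for pairs with Nfic. Within Nxph4-high cells these were 0.19, 0.29 and 0.13. The correlations share the cells' class and depth and carry no p-value.

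**Figure D4:**
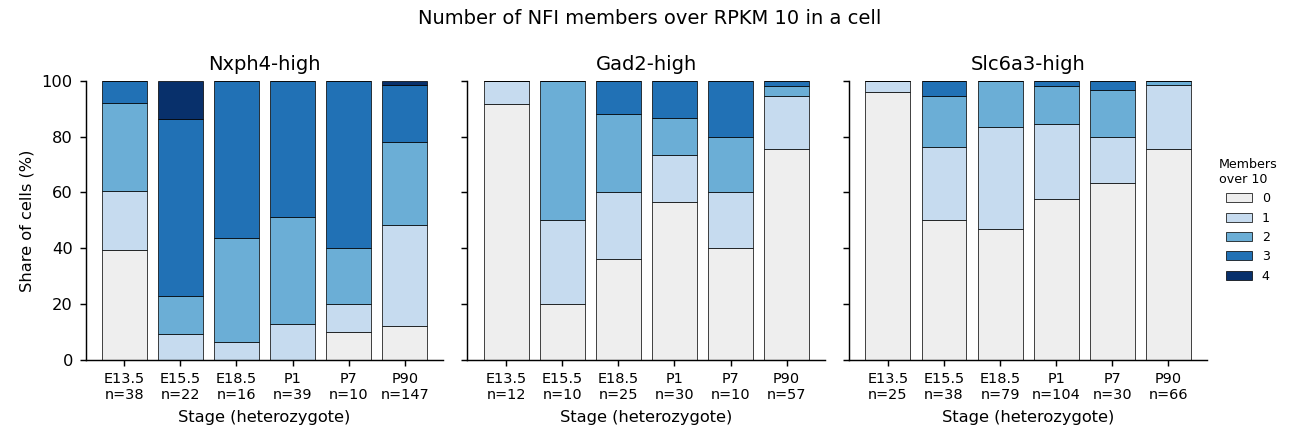
Share of cells (%) with 0 to 4 NFI genes over RPKM 10, stacked, by stage in 3 classes of heterozygote cells, with the number of cells under each bar. Darker bars (3 or 4 members) make up 17 of 22 Nxph4-high cells at E15.5, and at P90 the lightest bar (no member) makes up 75.4% of Gad2-high and 75.8% of Slc6a3-high cells.

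The genes most like each member were found by the Pearson correlation of log2(RPKM + 1) over the P90 cells among 9561 entries. For Nfia they were Nxph4 (0.65), C1ql1 (0.64), Nfix (0.63), Lypd1 (0.57) and Tcf4 (0.52). For Nfix they were Nfia (0.63), C1ql1 (0.61), Nfib (0.61), Nxph4 (0.60) and Medag (0.58), and for Nfib Nfix (0.61), Nxph4 (0.53), C1ql1 (0.51), Nfia (0.50) and Tcf4 (0.45). C1ql1 encodes a secreted synaptic organizer of the complement C1q-like family, and Tcf4 a basic helix-loop-helix transcription factor. In 473 cells of E18.5 and P1, which the choice did not use, the same correlations were 0.41, 0.30, 0.51, 0.31 and 0.38 for the genes listed for Nfia, 0.51, 0.33, 0.62, 0.45 and 0.21 for Nfix and 0.62, 0.35, 0.24, 0.58 and 0.39 for Nfib. The genes named for Nfic were Egr1, Msl1, Eif4enif1, Dnajb1 and Fosb, with correlations of 0.24 to 0.26 at P90 and 0.02 to 0.14 around birth. Egr1 and Fosb are immediate early genes and Dnajb1 a heat shock protein gene. Within Nxph4-high cells at P90 the correlations, in the order of the lists above, were 0.23, 0.12, 0.30, 0.33 and 0.02 for Nfia, 0.30, 0.09, 0.30, 0.30 and 0.41 for Nfix, and 0.30, 0.20, 0.07, 0.13 and 0.04 for Nfib. For the genes named for Nfic they were 0.32, 0.19, 0.15, 0.32 and 0.28. Correlations of the members with log2 reads of the cell were -0.15 to -0.01.

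Genes tied to NFI in other tissues were read in the same classes by the 2-fold limit. From this data set the paper already reports Tcf4, with Nfia, Nfib and Nfix, as enriched in cells with low Slc6a3. It reports Zfhx3 and Pou2f2 as more enriched in cells with high Slc6a3. The class differences of these genes below therefore repeat a result of the same data and are no separate support. The shares of all entries that were higher in Nxph4-high cells are given above, and the shares that were at least 2-fold lower in them than in Slc6a3-high cells were 17.9%, 21% and 15.3% at the 3 embryonic stages in order of age, 10.8% at P1, 21.6% at P7 and 7.55% at P90. Of the other late genes of the temporal sequence described in neurons, Tcf4 was higher in Nxph4-high than in Slc6a3-high cells at every stage, by 3.95-fold in mean RPKM at E13.5, 4.86-fold at E15.5, 3.66-fold at E18.5, 4.54-fold at P1, 7.77-fold at P7 and 8.46-fold at P90 (RPKM 139.2 against 16.5). Neurod6, higher in Nxph4-high cells at E13.5 (RPKM 20.2 against 0.0205), went the other way from E15.5 on and was at RPKM 0.300 in Nxph4-high and 32.9 in Slc6a3-high cells at P90, and Neurod2 reached the filter only at E13.5, and only through Nxph4-high cells (3.95 against 0), so that its call was fixed by the filter. The intermediate genes Pou2f2, Zfhx2, Zfhx3 and Zfhx4 had none higher and 2 of 4 lower in Nxph4-high cells at P90 and at E13.5, and 3 of 4 lower at E15.5, E18.5 and P1, with 1 higher and 1 lower at P7. The median fold of the list was 0.517 at P90. Gad2-high cells, set against Slc6a3-high cells at P90, also had 0 higher and 2 of 4 lower (median fold 0.613). Zfhx3, a homeobox and zinc finger factor, was over RPKM 10 in 88% of Slc6a3-high and 23.7% of Nxph4-high cells at E13.5 and in 28.8% and 0% at P90. From E13.5 to E15.5, when Nfib and Nfix were higher, 2 of these 4 were lower, against 9.05% of all entries: Pou2f2 (RPKM 23.4 and 6.82) and Zfhx2 (22.8 and 8.40). Over the same step 0 of 2 tested late genes passed the limit, Tcf4 (1.58-fold) and Neurod6 (1.28-fold). Of the early genes, Onecut2 and Onecut3 were measured and neither reached a mean of 1 in the class comparisons, while from E13.5 to E15.5 the 1 tested, Onecut2, was higher (RPKM 1.44 against 0.608).

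Of Gabra6, Grin2c, Cntn2, Cdh2 and Efnb1, genes known to need NFI in cerebellar granule neurons, 3 reached a mean RPKM of 1 at P90, and 0 were higher and 2 lower in Nxph4-high than in Slc6a3-high cells. The background was 13.1% of entries higher and 7.55% lower, with 3 genes tested. Cdh2, which encodes N-cadherin, had a mean of RPKM 10.2 against 24.7. Gad2-high cells, set against Slc6a3-high cells at P90, likewise had 0 of 3 tested genes of this list higher and 2 lower (median fold 0.375). At E13.5 and E15.5 the axonal cell adhesion gene Cntn2 was higher in Nxph4-high cells (RPKM 18.9 against 6.80, and 30.4 against 4.02), as was the ephrin ligand gene Efnb1 (14.2 against 5.33, and 8.12 against 3.34), and at P1 none of the 5 was. At E18.5 Efnb1 alone was higher, and at P7 Cntn2 and Efnb1 were higher and Cdh2 lower. Of the progenitor genes that NFI is known to repress (Hes1, Sox9, Ezh2, Insc), 1 of 1 tested was higher in Nxph4-high cells at P90 and 3 of 3 at P1, among them Sox9 (RPKM 17.8 against 2.0) and Ezh2 (19.2 against 9.04). At the other stages 1 of 2 was higher at E13.5, 0 of 1 at E15.5 and 2 of 3 at E18.5, and at P7 1 of 3 was higher, Sox9, and 2 lower, Hes1 and Ezh2 (median fold 0.341). Of the glial genes that NFI is known to induce (Gfap, Fabp7, Slc1a3, Apcdd1, Mmd2, Aqp4), 1 was tested at P90 and 0 were higher. Of those tested before birth, 1 was higher and 2 lower at E13.5, 2 higher and 1 lower at E15.5, and 2 of 4 higher at E18.5. At P1, 2 of 6 were higher, Fabp7 (RPKM 322.5 against 113.6) and Slc1a3 (34.3 against 10.2), and 1 was lower. The glial values moved with astrocyte markers, of which 6 of 8 were higher and 1 lower in the Nxph4-high cells at P1. Gfap, Slc1a3 and Aqp4 are on both of these lists, so this holds in part by construction. Sox9, on the list of repressed genes, is an astrocyte marker too, and it was the 1 repressed gene tested at P90. Microglia markers did not move with the astrocyte markers, with 6 of 6 lower. That count rested on few Slc6a3-high cells: 0.962% of these had at least 3 of the 6 over RPKM 10, and the median of the summed RPKM was 0 in both classes. Nothing particular to a list is read from these counts.

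Homozygotes lack both intact copies of Pitx3, and at E13.5 no NFI gene differed from heterozygotes beyond counting error. The shares in homozygotes and heterozygotes were 13.4% and 15.7% for Nfia (difference -2.31 points, -10.4 to 5.39), 26.8% and 26.4% for Nfib (0.387, -9.48 to 9.96), 3.91% and 5.0% for Nfic (-1.09, -6.44 to 3.61) and 5.03% and 6.43% for Nfix (-1.40, -7.24 to 3.81). None of 4 members passed the 2-fold limit in either direction, against 12.7% of entries. All homozygote cells had spike-in and no heterozygote cell of that stage did, and the homozygote cells were sequenced less deeply (median 753256 against 2357898 reads), so genotype and preparation cannot be told apart. The 3 homozygote plates gave 19.5%, 27.3% and 35.7% for Nfib and 9.20%, 13.6% and 18.6% for Nfia, a spread wider than the difference between genotypes. Only 1 homozygote cell was Slc6a3-high, against 25 heterozygote cells, while 59 and 38 were Nxph4-high. Within Nxph4-high cells Nfib was over RPKM 10 in 39% of homozygote and 55.3% of heterozygote cells, and Nfia in 18.6% and 34.2%.

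At P1, where cells with spike-in were compared, Nfia was over RPKM 10 in 62 homozygote cells (35%, 28 to 42.5; plates of 88 and 89 cells) and 13 of 94 heterozygote cells (13.8%, 7.57 to 22.5), a difference of 21.2 points (10.5 to 30.4). The 94 heterozygote cells were on 1 plate, so plate and genotype cannot be told apart. In the other P1 heterozygote cells, which had no spike-in, the share with Nfia was 31.2%, and without astrocyte-marker cells 21.6% (15.5 to 28.7). Nfib was over 10 in 39% and 25.5% (13.5 points, 1.60 to 24.1), Nfic in 9.61% and 4.26% (5.35 points, -1.76 to 11.2) and Nfix in 45.8% and 43.6% (2.15 points, -10.2 to 14.2). Means at least 2-fold apart were found for 2 of 4 members, Nfia (RPKM 12.3 against 3.62) and Nfic (4.44 against 1.39), against 17.2% of entries. Astrocyte markers moved with this comparison: all 8 were at least 2-fold higher in homozygotes, as were all 6 of the NFI-dependent glial genes and all 6 microglia markers. Gfap, Slc1a3 and Aqp4 count both as astrocyte markers and as NFI-dependent glial genes. So were 2 of 2 tested oligodendrocyte lineage markers and 3 of 3 tested progenitor markers, while 1 of 2 tested endothelial markers was lower. Without astrocyte-marker cells the shares with Nfia were 28.4% and 14% (14.4 points, 3.63 to 24) and those with Nfib 34.5% and 25.8% (8.65 points, -3.44 to 19.8). Set against all P1 heterozygote cells in place of those with spike-in, the differences were 9.50 points for Nfia and -0.178 points for Nfib. The class makeup differed too, with 16 homozygote and 52 heterozygote cells Slc6a3-high, 25 and 8 Nxph4-high, and 59.3% of homozygote and 22 of 94 heterozygote cells with none of the 3 genes over 150.

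Within Slc6a3-high cells the share with Nfix was lower in homozygotes, by an amount that varied with the heterozygote cells used. This class was 9.04% of all P1 homozygote cells and 36.4% of all P1 heterozygote cells. It need not hold the same kind of cell in both genotypes, so the difference cannot be told apart from a change in which cells entered it. Among Slc6a3-high cells Nfix was over RPKM 10 in 1 of 16 homozygote (6.25%) and in 40.4% of 52 heterozygote cells (difference -34.1 points, -48.6 to -8.90), with means of RPKM 2.32 and 21.5, and without astrocyte-marker cells in 6.67% of 15 and 39.2% of 51. Those 52 cells were on 1 plate, and in the other 52 heterozygote Slc6a3-high cells of P1, without spike-in, the share was 23.1%. Against all Slc6a3-high heterozygote cells (31.7%) the difference was -25.5 points (-36.2 to -1.94). The homozygote plates gave 0 of 9 and 1 of 7 cells, or 0% and 14.3%. Nfia was over 10 in 0 of 16 and 3.85% of 52 of these cells. Among Nxph4-high cells Nfix was over 10 in 25 of 25 homozygote and 87.5% of 8 heterozygote cells (12.5 points, -4.31 to 47.1). Among cells with none of the 3 genes over the limit, Nfia was over 10 in 35.2% and 22.7%, and in 22.5% and 22.7% without astrocyte-marker cells.

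**Figure D5:**
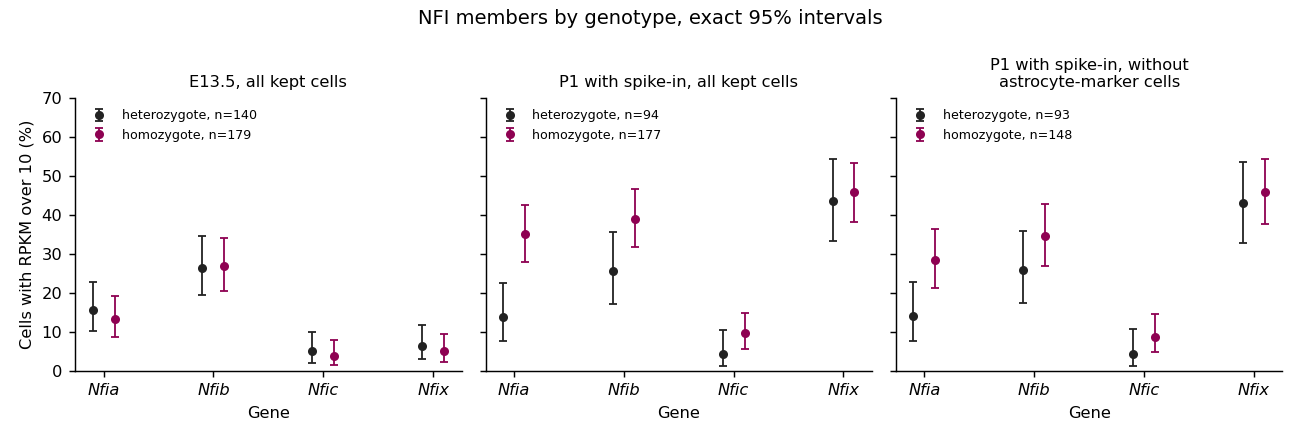
Share of cells (%) with each NFI gene over RPKM 10 in heterozygotes (black) and homozygotes (purple), with exact 95% intervals, at E13.5, at P1 in cells with spike-in, and at P1 without astrocyte-marker cells. The points nearly coincide at E13.5; at P1 Nfia stands at 13.8% and 35%, and at 14% and 28.4% without astrocyte-marker cells.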

How the data were processed

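Reads of 43 bases were aligned by the authors with STAR to mm10 with eGFP and spike-in sequences, and uniquely mapped reads were counted. The authors deposited for each cell the count of reads per gene (not normalized) and the RPKM from rpkmforgenes, in which a count is divided by gene length and depth. The length was that of the transcripts detected in each cell: for cells with Nfix over RPKM 10 it implied 917 to 4584 bases (5th to 95th percentile) and for Nfia 2075 to 8240. In those cells the median number of reads was 184 for Nfix, 261 for Nfia, 253 for Nfib and 94 for Nfic. A symbol was given for 38130 of 39468 entries; the rest took 0.211% of reads.

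A cell was used if it had over 100000 reads and detected at least 15% (3.4% at P90) of 31526 genes seen in the data set. Cells with at least 3 of 8 oligodendrocyte lineage markers over RPKM 10 were left out; leaving out astrocyte-marker cells, or cells with Olig1 but not eGFP over RPKM 10, was added after seeing the data. Doublets were not called. Shares carry exact Clopper-Pearson intervals at 95% and differences Newcombe intervals; they treat cells as independent and cover counting error only. The 2-fold limit was applied to entries with a mean RPKM of at least 1. It was tried on simulated cells at the P90 class sizes only, with changes larger than 2-fold in entries with a mean RPKM of at least 5. Changes near 2-fold and smaller classes were not simulated, so the simulation says nothing on calls there. Named genes were the members, the class genes, listed genes past 2-fold with a mean RPKM of at least 5 (up to 4 per list), and per member the 5 entries most like it with a mean RPKM of at least 5 and over RPKM 10 in at least 10% of P90 cells; exceptions to the rule are genes that complete a list. Members and lists were chosen with earlier results of these data known. Of other marker lists, at P90 microglia, endothelial, progenitor and oligodendrocyte markers in Nxph4-high against Slc6a3-high cells gave 0, 0, 1 and 1 gene higher and 0, 1, 0 and 0 lower, astrocyte markers 2 and 0, and neuron markers 0 and 1. Python 3.11.15, NumPy 2.4.6, SciPy 1.17.1 and pandas 2.3.3 were used.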

Additional observations from a re-analysis of the deposited data

Results flagged for a closer look

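The 59 cells set apart for their oligodendrocyte lineage markers enter no comparison of the report, and only 1 of the alternatives kept them. NFI genes were found in them. Nfia was over RPKM 10 in 39% of these cells (38.98%, exact 95% interval 26.6 to 52.6), Nfib in 66.1% (52.6 to 77.9), Nfic in 15.3% (7.22 to 27) and Nfix in 47.5% (34.3 to 60.9). The cells with astrocyte markers among the kept cells had Nfia in 78.3%, Nfib in 77.6%, Nfic in 21.7% and Nfix in 66.4%. In the P90 neurons with none of the 3 class genes over the limit, the shares were 24.1%, 34.5%, 10.3% and 44.8%. No cell set apart for oligodendrocyte lineage markers and no astrocyte-marker cell came from P90, so age differs here along with the kind of cell. In P1 heterozygote cells without either kind of cell the shares were 18.8%, 34.9%, 6.27% and 46.3%. The part of cells with glial markers in the differences between neuron classes was not tested beyond the values given without them.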

How the results depend on the processing

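Of 440 values recomputed under alternatives, 398 stayed within the counting interval of the main value, 37 moved beyond it and 5 turned direction where the main interval excluded 0; counting values whose main interval held 0, the sign turned in 21. The 48 values with cells thinned to 100000 reads, with oligodendrocyte-marker cells kept, with no limit on detected genes and with a fixed gene length (chosen after seeing the data) did not move. Most moves came from the RPKM limit. With RPKM over 50, the share in Nxph4-high cells exceeded that in Slc6a3-high cells at P90 by 1.36 points for Nfia, 4.76 for Nfib and 25.2 for Nfix, and at P1 by 10.3 for Nfia and 22.4 for Nfib. E15.5 exceeded E13.5 by 3.53 points for Nfia and 34.7 for Nfix, P90 minus E18.5 was -14.5 for Nfix and -1.22 for Nfic (turned), and homozygotes at P1 exceeded heterozygotes by 4.52 points for Nfia. With RPKM over 1, the P90 class differences were 80.9, 68.7, 18.1 and 71.9 points for Nfia, Nfib, Nfic and Nfix and the P1 difference 24.7 for Nfic. P90 minus E18.5 was then 20.6 for Nfia and 20.5 for Nfic, E15.5 minus E13.5 56 for Nfix, and the P1 genotype difference 31.6 for Nfia. Leaving out astrocyte-marker cells (chosen after seeing the data) turned P7 minus P1 from 18.9 to -3.32 points for Nfib and from 13.2 to -10.8 for Nfix, and leaving out Olig1 cells lacking eGFP (also chosen after seeing the data) gave 5.22 for Nfib and -1.52 for Nfix (turned). All P1 heterozygote cells in place of those with spike-in gave genotype differences of 9.50 for Nfia and -0.178 for Nfib (turned). By Spearman correlation 3 of the 5 genes most like Nfic were the same. The cause of the moves with the RPKM limit was not tested. A Nfic value over RPKM 10 rested on a median of 94 reads, and classes of 8 to 16 cells give wide intervals. No paired analysis was possible because a replicate number names a single cell and pairs nothing across groups; class differences within plates stand with the results.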
